A study of Mus musculus with 6 samples.

Results

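Robo1, Robo2, Slit2, Slit3, Tenm2, Sema4c, Plxna4 and Ptn are 8 genes of axon guidance and neural adhesion that were measured in epithelial cells of the mouse submandibular gland. They were chosen as the rows of these symbols present in all 3 single-cell matrices, 8 of 32285 genes in each. The values behind the choice were counts per 1000000 UMIs (CPM) in basal and in luminal cells of the duct. That contrast is therefore given for the members as a description, without a test.

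Slits are secreted ligands of the Robo receptors, and the pair was described first as a repellent for growing axons, and later in the branching of ducts and the adhesion of basal cells in glands. Semaphorins are another family of guidance ligands and signal through plexins. Sema4c codes a membrane-bound semaphorin and Plxna4 a plexin. Teneurins such as Tenm2 are large membrane proteins that bind latrophilins across cell contacts, and pleiotrophin, the product of Ptn, is a secreted heparin-binding growth factor that promotes neurite outgrowth and acts through the phosphatase receptor Ptprz1 and syndecans.

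The samples were 3 libraries of droplet 3' single-cell RNA sequencing, each from 3 pooled female wild-type C57BL/6J mice told apart by antibody hashtags. The mouse is the replicate (n = 3 in each group). The basal sort held Epcam-positive cells with high Cd49f (integrin alpha 6) of untreated glands. The untreated whole epithelium held Epcam-positive cells of untreated glands, and the irradiated whole epithelium held Epcam-positive cells of left glands collected 90 days after 30 Gy. Every library is labelled as from mice of 8 to 10 weeks, which cannot be the age at collection of the irradiated mice. Dead cells were removed in all sorts, as was any cell with Cd45, Cd31, Cd3 or Cd16/32. Library, collection time and irradiation coincide, so their parts in a difference cannot be told apart.

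Cells of the 3 libraries were clustered without the members and without a list of 112 guidance and adhesion genes that includes them, and clusters were named from marker lists. The class called granular duct-like here also holds striated duct-like cells. Of the untreated cells in it, 446 of 633 lay in cluster 7, led by Cox8b and Pcp4l1, which had 5 of 7 striated and 1 of 8 granular markers raised, and 182 in cluster 9, led by Klk1b22 and Egf, with 5 of 7 striated and 8 of 8 granular markers raised. The basal sort kept 3104 cells, the untreated epithelium 2137 and the irradiated epithelium 2062, with 7126772 to 27793748 UMIs (counts of unique transcript molecules) per mouse. The libraries shared 1 to 15 cell barcodes in pairs. Basal duct-like cells of the basal sort (2546 cells) held counts of all 9 basal markers, among them Krt5, Krt14 and Trp63, with a summed 7162 to 9045 CPM per mouse. The clusters that make up this class (1, 2, 6, 8 and 15) had 6, 7, 8, 6 and 8 of the 9 raised. Basal duct-like cells of the untreated and irradiated epithelium numbered 55 and 22. Ptprc, which codes Cd45, had 0 counts in the basal sort, while Pecam1, which codes Cd31, had 713 counts and 115 cells of that sort were endothelial-like. The neural or Schwann list of 9 genes summed to 32.1 to 36.3 CPM in the basal duct-like cells, with Cdh19 at 0.

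Robo1 and Robo2 lie on chromosome 16 (GRCm38, 72027518 to 73047491 and 73891976 to 75447443), 844 kb apart. Slit3 and Tenm2 lie on chromosome 11 (35121456 to 35708507 and 36006656 to 37237053), 298 kb apart. Plxna4 and Ptn share chromosome 6 (32144543 to 32588192 and 36714924 to 36810179). Slit2 lies on chromosome 5 (47981291 to 48307735) and Sema4c on chromosome 1 (36548639 to 36560699).

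Promoter sequences, 250 bases before to 50 bases after a start site in RefSeq's GRCm38.p6 annotation, were held for 7 of the 8 members in 10 windows. Shown 5′ to 3′ are the first windows of the 4 members that were high together in basal duct-like cells, and of Slit2, which was highest in granular duct-like cells among the classes with at least 20 cells in every mouse. Capitals mark matches on either strand to the 5 motifs searched: GGGCGG (the GC box), TATAAA (the TATA box), CAGGTG (an E-box), TCAAAG (a core of the Tcf and Lef motif) and TGANTCA (the AP-1 motif).
Robo1 promoter, chr16:72662899-72663198, plus strand: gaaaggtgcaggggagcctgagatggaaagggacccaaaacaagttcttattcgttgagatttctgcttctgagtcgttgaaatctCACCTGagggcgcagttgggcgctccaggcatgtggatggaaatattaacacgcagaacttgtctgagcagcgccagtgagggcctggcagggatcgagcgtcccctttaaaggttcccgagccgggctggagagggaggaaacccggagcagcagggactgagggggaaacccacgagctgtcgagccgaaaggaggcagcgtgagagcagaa
Robo2 promoter, chr16:75447244-75447543, minus strand: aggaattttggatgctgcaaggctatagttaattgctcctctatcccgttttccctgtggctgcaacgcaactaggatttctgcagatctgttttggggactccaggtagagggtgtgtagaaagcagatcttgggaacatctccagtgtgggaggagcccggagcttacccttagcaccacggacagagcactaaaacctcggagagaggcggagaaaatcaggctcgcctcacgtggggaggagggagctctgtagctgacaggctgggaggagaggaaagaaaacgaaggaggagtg
Tenm2 promoter, chr11:36944192-36944491, minus strand: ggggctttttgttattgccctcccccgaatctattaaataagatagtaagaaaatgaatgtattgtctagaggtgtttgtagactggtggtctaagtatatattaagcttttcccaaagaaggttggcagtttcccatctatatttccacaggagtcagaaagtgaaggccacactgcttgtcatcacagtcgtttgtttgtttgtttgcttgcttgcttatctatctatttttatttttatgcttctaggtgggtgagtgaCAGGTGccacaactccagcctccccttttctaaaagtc
Ptn promoter, chr6:36810130-36810429, minus strand: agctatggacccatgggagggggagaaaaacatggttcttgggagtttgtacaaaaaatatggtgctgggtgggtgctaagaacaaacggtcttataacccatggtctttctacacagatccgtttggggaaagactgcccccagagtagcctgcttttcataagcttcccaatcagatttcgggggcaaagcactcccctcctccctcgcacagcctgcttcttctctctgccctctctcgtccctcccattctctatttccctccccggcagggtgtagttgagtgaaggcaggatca
Slit2 promoter, chr5:47982905-47983204, plus strand: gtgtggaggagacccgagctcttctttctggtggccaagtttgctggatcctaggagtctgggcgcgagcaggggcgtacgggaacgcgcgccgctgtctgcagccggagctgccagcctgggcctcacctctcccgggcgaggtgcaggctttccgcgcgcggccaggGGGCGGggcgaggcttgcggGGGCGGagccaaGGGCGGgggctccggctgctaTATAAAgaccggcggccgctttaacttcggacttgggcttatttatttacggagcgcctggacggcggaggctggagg
The Robo1 and Tenm2 windows each hold 1 CAGGTG, a motif present in 20.2% of 32851 mouse promoter windows of the same length. The Robo2 windows and the Ptn window hold none of the 5 motifs. The Slit2 window holds 3 matches to GGGCGG (in 35.7% of all windows) and 1 TATAAA (13.6%). The Slit3 window holds 6 matches to GGGCGG. The first Sema4c window holds 2 matches to GGGCGG, 1 CAGGTG and 1 TGANTCA (7.81% of all windows), and no member's window holds TCAAAG (16.0%). The G and C content ran from 40.0% in Tenm2 to 78.3% in Slit3, against a median of 52.7% over all windows. No motif is shared by the 4 members that were high in basal duct-like cells.

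**Figure D1:**
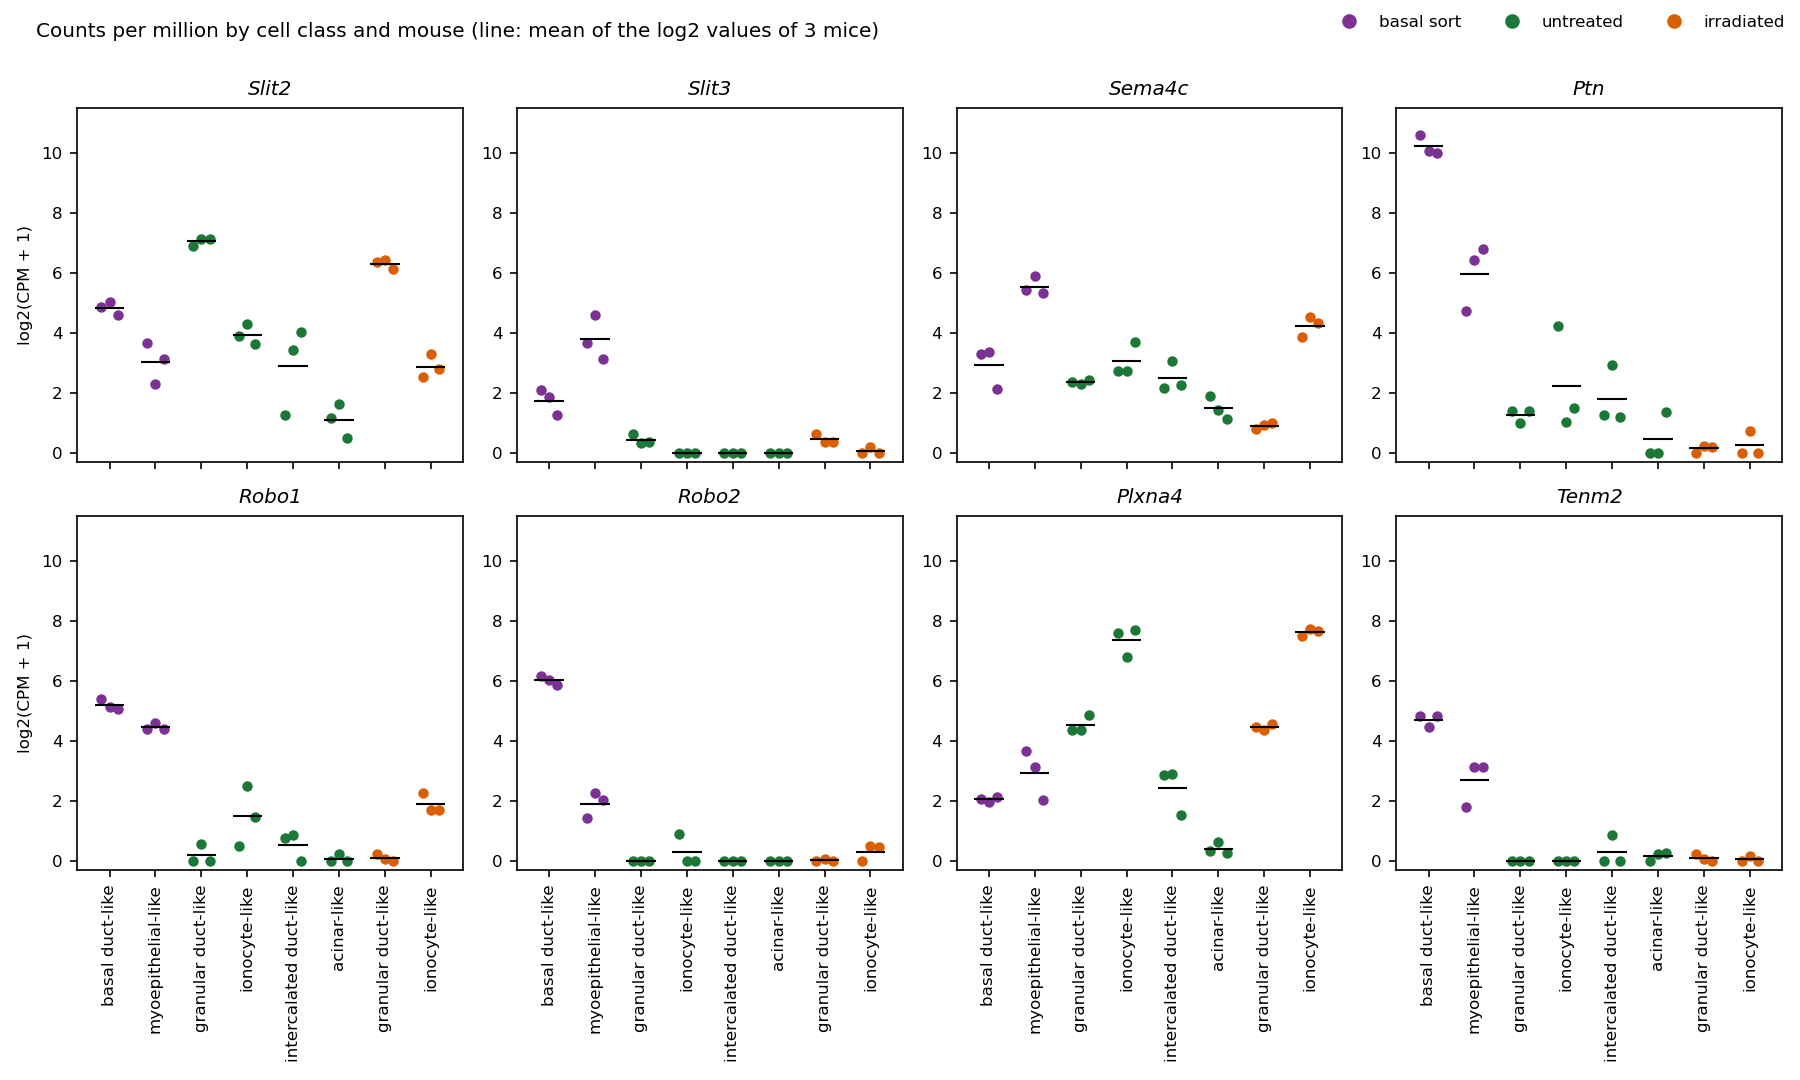
Level of each member as log2(CPM + 1) in each mouse (points) and the mean of these log2 values (line), in the 8 combinations of class and library with at least 20 cells in every mouse. Robo1, Robo2, Tenm2 and Ptn are highest in basal duct-like cells, Slit2 in granular duct-like cells, Plxna4 in ionocyte-like cells, and Slit3 and Sema4c in myoepithelial-like cells.

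Levels are given below as CPM of the summed counts of a class in a mouse, in the order of mice 1, 2 and 3. CPM here is not divided by transcript length, so no gene's level is set against another gene's.

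Of the ligands, Slit2 stood highest in granular duct-like cells among the classes with at least 20 cells in every mouse. It read 117, 138.5 and 138.1 CPM in untreated granular duct-like cells (131 ± 12.2, SD, n = 3), with a UMI in 78.8% of 633 cells. Clusters 7 and 9 overlapped, at 118, 141 and 138 CPM in the first and 114, 136 and 139.9 CPM in the second. The basal duct-like cells of the sort read 28.0, 31.2 and 23.1 CPM (27.4 ± 4.09), with a UMI in 28.9% of 2546 cells, and the untreated ionocyte-like cells 13.7, 18.4 and 11.3 CPM (14.5 ± 3.60). These 3 classes did not overlap with each other over the mice, whereas untreated intercalated duct-like cells (1.40, 9.80 and 15.2 CPM) overlapped with ionocyte-like cells. Basal duct-like cells of the sort held 0.590 times the pooled luminal level of the untreated epithelium (95% counting interval 0.545 to 0.639). The counts behind that ratio were 1687 in luminal and 987 in basal duct-like cells. Within single libraries, on counts pooled over the mice, the ratio was 0.237 in the untreated (0.102 to 0.468) and 0.538 in the irradiated epithelium (0.278 to 0.941). The irradiated ratio rests on 12 counts in 22 basal duct-like cells. Taken from the means over mice it was 2.22, so its direction depends on the weight given to each mouse. Within the basal sort the pooled ratio was 1.03 (0.693 to 1.599), from 25 luminal counts. The 55 basal duct-like cells of the untreated epithelium read 10.9 CPM from 8 counts, below the mean of its ionocyte-like cells. For untreated glands the basal level above ionocyte-like cells thus rests on a comparison across libraries. In the irradiated epithelium the basal duct-like cells read 30.7 CPM over the mice, and its ionocyte-like cells 4.81 to 8.66 CPM by mouse.

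Slit3, the other Slit ligand of the set, was highest in myoepithelial-like cells among the classes with at least 20 cells in every mouse. These contractile cells, which wrap acini and ducts, read 11.7, 23.1 and 7.74 CPM (14.2 ± 7.95, n = 3) from 25 counts, and basal duct-like cells 3.23, 2.63 and 1.38 CPM (2.42 ± 0.944). The untreated luminal classes held 4 counts in 1945 cells, and 13 of the 21 Slit3 counts of the untreated library lay in 13 fibroblast-like cells, at 101 CPM in mouse 2 (11 cells) and 266 CPM in mouse 3 (2 cells). The 115 endothelial-like cells of the sort held 4 Slit3 counts, or 9.88 CPM over the mice (2.69 to 25.3).

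Ptn counts of the untreated libraries lay mostly in basal duct-like cells. Basal duct-like cells of the sort read 1549.9, 1071 and 1012 CPM (1211 ± 295, n = 3), and 94.7% of them held a UMI. The 55 basal duct-like cells of the untreated epithelium read 2033, 1512 and 1790 CPM by mouse, and they held 1281 of the 1400 Ptn counts of that library (91.5%). In granular duct-like cells of the same library 10 of 633 cells (1.58%) held a Ptn UMI, at a median depth of 17998 UMIs against 14017 in the basal duct-like cells of the sort. Basal duct-like over pooled luminal cells came to 564-fold across the libraries (454 to 710) and 781-fold within the untreated library (624 to 988). Both contrasts rest on 82 luminal counts, of which 41 came from 1 ionocyte-like cell of mouse 1.

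Sema4c, the membrane semaphorin, was 1.86 times as high in basal duct-like as in pooled luminal cells (1.51 to 2.30), and 3.21 times within the untreated library (1.44 to 6.28, from 9 basal counts). Its untreated luminal levels were 5.56, 5.62 and 11.9 CPM in ionocyte-like cells and 4.06, 3.90 and 4.37 CPM in granular duct-like cells, and basal duct-like cells read 8.81, 9.33 and 3.33 CPM. The basal range overlapped with both, whereas ionocyte-like cells lay above granular duct-like cells without overlap. Untreated acinar-like cells read 2.72, 1.68 and 1.18 CPM, below every basal duct-like sum. Myoepithelial-like cells read 41.9, 57.6 and 38.7 CPM (46.1 ± 10.1, n = 3), above each of those classes. The endothelial-like cells of the basal sort read 133, 96.5 and 92.4 CPM from 45 counts, and 10.5% of that sort's 429 Sema4c counts lay in them.

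Of the receptors, Robo1 and Robo2 were both highest in basal duct-like cells among the classes with at least 20 cells in every mouse. Robo1 read 41.2, 33.7 and 32.3 CPM there (35.7 ± 4.79, n = 3) and 20.1, 23.1 and 20.1 CPM in myoepithelial-like cells, with no overlap. Cycling cells of the sort, 45, 11 and 38 by mouse, read 46.9, 61.3 and 30.6 CPM of Robo1. Of the untreated luminal classes, ionocyte-like cells read 0.427, 4.60 and 1.79 CPM, and 13 fibroblast-like cells held 5 Robo1 counts. Robo2 read 71.5, 65.1 and 57.7 CPM in basal duct-like cells (64.8 ± 6.89) and 1.67, 3.84 and 3.10 CPM in myoepithelial-like cells. The luminal classes of the untreated epithelium held 2 Robo2 counts in 1945 cells, and 0 of 633 granular duct-like cells had a UMI, which allows a share of up to 0.474% of cells with a UMI, though not a limit on cells that express the gene. Robo1 was 74.5-fold higher in basal duct-like than in luminal cells (47.0 to 126), and for Robo2 the 2382 against 2 counts give a counting interval of 332 to 9930 for the ratio.

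Within single libraries the Robo contrast had the same direction. In the untreated epithelium alone, 27 of 31 Robo2 counts and 20 of 46 Robo1 counts lay in the 55 basal duct-like cells, and Robo1 was 55.5-fold higher there than in luminal cells (27.9 to 111). In the irradiated epithelium alone, 10 of 16 Robo2 counts lay in the 22 basal duct-like cells, and Robo1 was 19.3-fold higher (6.63 to 46.3). In the basal sort alone the 130 luminal cells held no count of either gene. Against a floor of 3 counts over those cells, Robo1 was at least 11.6-fold and Robo2 at least 20.7-fold higher in the basal duct-like cells.

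Plxna4, a receptor of class 3 and class 6 semaphorins, was highest in ionocyte-like cells among the classes with at least 20 cells in every mouse. It read 193, 111 and 208 CPM in untreated ionocyte-like cells (171 ± 52.0, n = 3), a duct cell type rich in proton pumps and chloride channels, with a UMI in 78.0% of 533 cells. Granular duct-like cells read 19.5, 19.5 and 28.2 CPM and basal duct-like cells 3.23, 2.87 and 3.42 CPM. Untreated intercalated duct-like cells averaged 4.90 CPM (1.90 to 6.53) and overlapped with basal duct-like cells. Acinar-like cells averaged 0.334 CPM (0.196 to 0.560), below every basal duct-like sum. The pooled luminal level of the untreated epithelium was 11.1 times that of basal duct-like cells of the sort. Within the untreated library 1018 of the 1504 Plxna4 counts lay in ionocyte-like cells, and the 55 basal duct-like cells held 0. Within the basal sort, basal duct-like and luminal cells read 3.21 and 3.16 CPM, from 117 and 3 counts. Nrp1, which codes a co-receptor of class 3 semaphorins, was looked up for that partnership after its values were seen. It averaged 0.199 CPM in those ionocyte-like cells and 1181 CPM in the endothelial-like cells of the sort.

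Tenm2, the teneurin, was found in few cells outside the basal sort. It read 27.8, 20.9 and 27.8 CPM in basal duct-like cells (25.5 ± 3.96, n = 3), with a UMI in 26.2% of cells, and 2.51, 7.68 and 7.74 CPM in myoepithelial-like cells. The untreated luminal classes held 3 counts, of which granular duct-like and ionocyte-like cells held 0. The 955 against 3 counts give an interval of 110 to 1560 for the ratio. Of the latrophilins it can bind, Adgrl3 averaged 20.4 ± 0.740 CPM in basal duct-like and 9.25 ± 5.26 CPM in untreated intercalated duct-like cells, but 0.0813 CPM in granular duct-like cells. Adgrl2 averaged 31.7 CPM in basal duct-like and 170 CPM in endothelial-like cells.

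Summed over all kept cells, the sort against the untreated epithelium gave log2 fold changes of 5.85 for Tenm2, 5.66 for Robo2, 4.42 for Ptn, 4.32 for Robo1, 1.83 for Slit3, 0.60 for Sema4c, −1.47 for Slit2 and −3.97 for Plxna4. Of all 12928 genes tested in that contrast by edgeR, 73.1% were called at an adjusted p under 0.05, 36.2% higher and 36.9% lower in the sort. Since the members were chosen on this contrast, nothing is read from that share. On total counts in place of the normalized library sizes the fold changes lay higher, by 0.55 at the median of all genes, with 1.16 for Sema4c and −0.91 for Slit2. The other 69 genes of the guidance and adhesion list that were tested split into 42 higher and 14 lower.

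Basal duct-like cells of the sort fell into 5 clusters, and the members differed among them. The cluster led by Clca3a2 and Serpina3g (816 cells) had the most Robo2, at 119, 110.1 and 92.2 CPM (107 ± 13.7, n = 3), and the cluster led by Krt15 and Ank2 (675 cells) had 22.9, 18.1 and 21.3 CPM. Ptn ran the other way between these clusters, at 1003, 519.98 and 581 CPM in the first and 2167, 1610.2 and 1548 CPM in the second. In all 3 mice Robo2 was higher and Ptn lower in the first of them. Robo1 also was highest in the first (49.3 ± 8.01 CPM) and lower in the second (22.3 ± 4.12 CPM), and Tenm2 read 33.6 ± 6.48 against 19.8 ± 5.93 CPM.

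The smallest basal cluster, 104 cells led by Orm1, Krt6a and Tnc, held little of the 4 members that marked basal cells. Ptn read 75.2, 81.3 and 83.3 CPM there, against 701 to 1775 CPM on average in the other 4 clusters. Robo2 read 1.84, 8.13 and 2.03 CPM from 4 counts, Tenm2 1.36 CPM from 1 count and Robo1 8.61 CPM from 10 counts. Slit2 averaged 22.3 ± 2.11 CPM, within the 21.3 to 36.5 CPM of the other clusters. Plxna4 averaged 16.1 ± 5.93 CPM there and 2.38 to 3.33 CPM in the others, and Slit3 8.48 ± 0.604 against 0.136 to 4.70 CPM. Clusters were drawn on the same cells, so these differences are described and not tested.

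**Figure D2:**
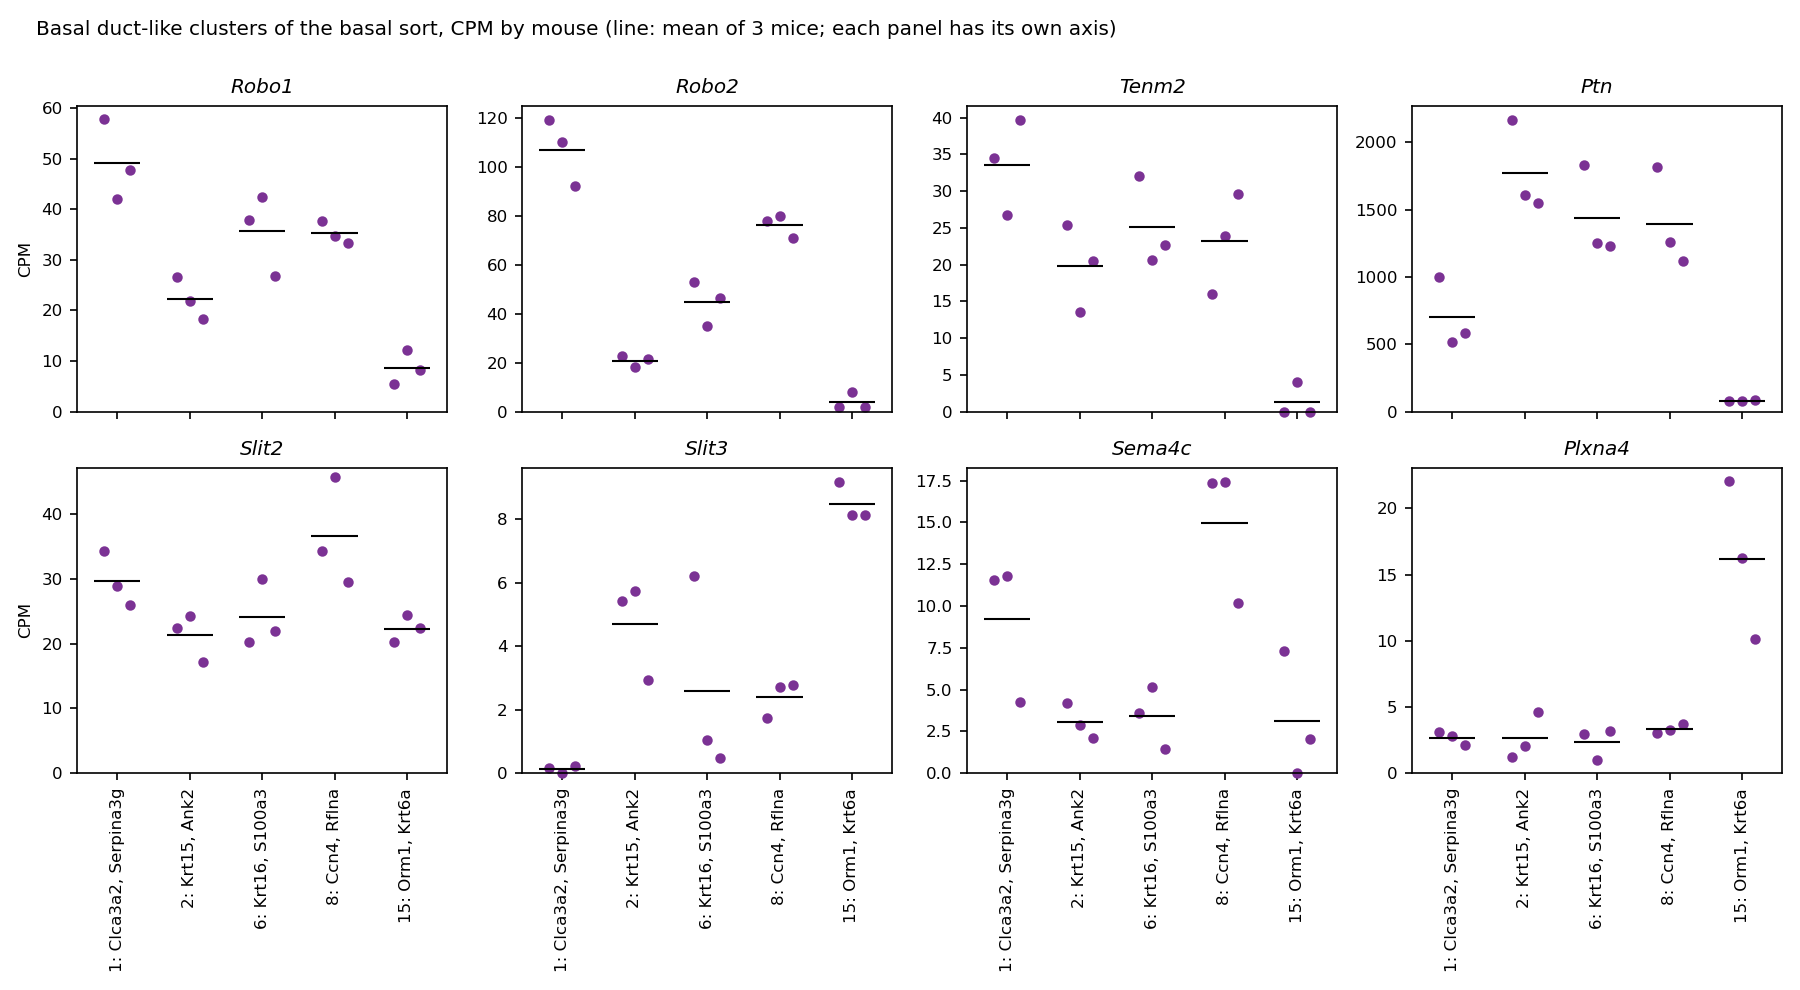
CPM of each member per mouse (points) in the 5 basal duct-like clusters of the basal sort, each panel with its own axis. The cluster of 104 cells led by Orm1 is low in Ptn, Robo1, Robo2 and Tenm2 and high in Plxna4 and Slit3 in all 3 mice.

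Within single basal duct-like cells thinned to 5000 UMIs (2477 cells), Robo1 and Robo2 were found together in 105 cells, against 83.8 if the genes were spread independently. Robo2 and Tenm2 were found together in 76 cells against 62.2, and Robo2 and Slit2 in 95 against 71.1. Robo1 and Slit2 shared 47 cells against 48.4. The clusters' different levels enter these counts, and no test was made.

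Myoepithelial-like and basal duct-like cells of the sort came from the same 3 mice. The basal duct-like levels, one arm of this contrast, took part in the choice of members, so the members' differences are given as a description, without a test. By edgeR with the mouse as a block, 51.6% of 10996 genes passed an adjusted p under 0.05, 24.7% higher and 26.9% lower in myoepithelial-like cells. The 4 members that marked basal duct-like cells were lower in myoepithelial-like cells, with log2 fold changes of −5.18 ± 0.33 (SE) for Robo2, −4.69 ± 0.28 for Ptn, −2.87 ± 0.37 for Tenm2 and −1.25 ± 0.23 for Robo1. For Slit2 it was −1.92 ± 0.30. Each was lower in 3 of 3 mice.

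The Ptn level of myoepithelial-like cells rested on few cells. It read 25.1, 84.5 and 108 CPM, yet 24 of 215 cells held a UMI. In mouse 2, 21 of 22 counts lay in 1 cell, and in mouse 3, 45 of 70 counts lay in 2 cells.

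Sema4c and Slit3 were the members higher in myoepithelial-like cells. Sema4c differed by 2.28 ± 0.26 on the log2 scale, with no overlap between the classes, and was detected in 30.7% of myoepithelial-like against 8.44% of basal duct-like cells. Slit3 differed by 1.92 ± 0.43, also without overlap, from 25 and 90 counts. Plxna4 read 11.7, 7.68 and 3.10 CPM against 3.23, 2.87 and 3.42 CPM, a difference of 0.92 ± 0.48, and the classes overlapped. Endothelial markers, whose cells also carry Sema4c, summed to 3.84 to 13.9 CPM in the myoepithelial-like cells, with Cdh5, Cldn5, Emcn and Egfl7 at 0. The neural or Schwann list summed to 121 to 307 CPM there, against 32.1 to 36.3 CPM in basal duct-like cells, with 8 of 9 genes detected and Ncmap at 0. Its part in these differences was not tested.

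**Figure D3:**
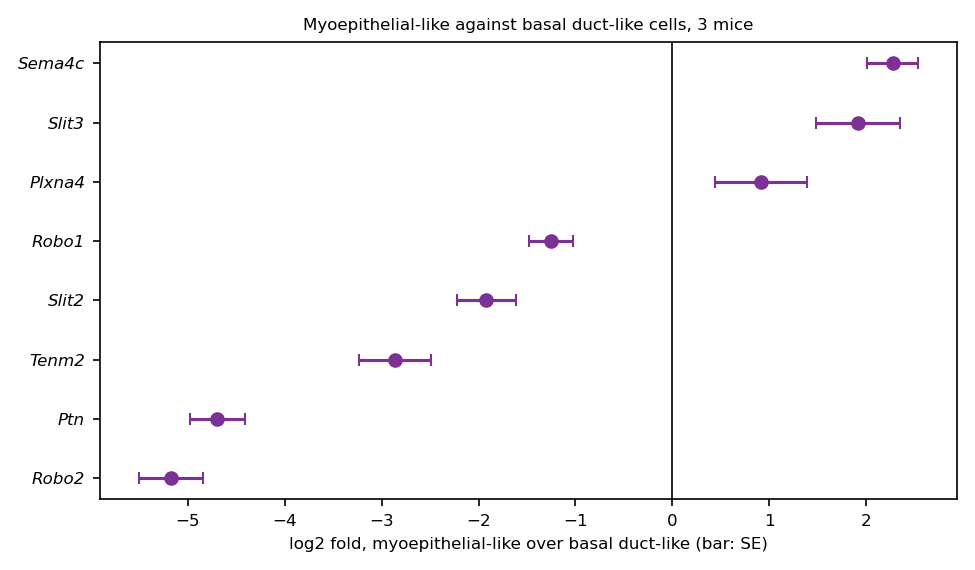
Log2 fold change of each member between myoepithelial-like and basal duct-like cells of the basal sort (edgeR, 3 mice, bar: SE). Sema4c and Slit3 are higher and 5 members lower in myoepithelial-like cells, and the classes overlap for Plxna4 over the mice.

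Partners of these members were compared between the same 2 classes, where 51.6% of 10996 genes passed (24.7% higher, 26.9% lower). Of the 9 other semaphorins tested, 6 were higher and 1 lower in myoepithelial-like cells, with Sema3c, a secreted class 3 semaphorin, at 111 ± 9.45 against 17.0 ± 1.74 CPM (log2 2.31 ± 0.17, edgeR adjusted p = 3.9e-10). Ntng1, a membrane-anchored netrin, rose from 36.6 ± 8.17 to 206 ± 25.6 CPM (2.16 ± 0.15, 1.2e-10). Ephrins went the other way, with 0 of 7 higher and 4 lower, among them Efnb2 at 20.6 against 93.0 CPM. Srgap1, a GTPase activator that binds Robo receptors, fell by 4.03 ± 0.66 (3.5e-05), from 11.4 to 1.80 CPM. Ptprz1 and Sdc1, looked up as pleiotrophin receptors after their values were seen, moved apart. Ptprz1 read 47.4 ± 14.4 against 9.47 ± 2.31 CPM (higher, 7.4e-06) and Sdc1 35.8 ± 3.98 against 76.7 ± 3.44 CPM (lower, 4.6e-07). Of the 6 genes tested in the pleiotrophin family and its receptors, Ptn not counted, 1 was higher, 2 were lower and 3 did not pass. In all, 19 of the 55 other list genes tested were higher and 14 lower, with a median of 0.20.

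Among the luminal classes of the untreated epithelium, Slit2 and Plxna4 were sorted between duct cell types. The choice of members set basal against luminal cells, whereas here luminal classes were compared with each other within mice. The luminal levels were part of the values behind that choice, so the adjusted p-values below carry that limit. Slit2 fell by 3.75 ± 0.13 on the log2 scale in ionocyte-like against granular duct-like cells (edgeR adjusted p = 9.1e-12), and Plxna4 rose by 2.33 ± 0.13 (1.9e-09). The difference of 0.27 ± 0.32 in Sema4c did not pass (0.53). Of 3 members tested 2 were called, where 45.2% of 9525 genes were (23% higher, 22.2% lower). In intercalated duct-like against granular duct-like cells Slit2 fell by 4.57 ± 0.22 (2.7e-10) and Plxna4 by 2.92 ± 0.32 (2.0e-06), again 2 of 3 members where 46.1% of genes passed (22.7% higher, 23.4% lower). The 5 other members had too few luminal counts to be tested.

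The normalization (trimmed mean of M-values, TMM) placed these fold changes 0.59 and 0.69 below those on total counts. The shift was 0.41 in the myoepithelial contrast and 0.33 in the contrast of whole epithelia below, and at most 0.07 within the irradiated classes. The ratio of CPM for Slit2 in ionocyte-like against granular duct-like cells is accordingly less extreme than the fitted fold change.

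Other guidance genes also separated these ducts. Ntn1, a netrin, read 8.78 ± 2.48 CPM in untreated granular duct-like cells and 0.739 ± 0.934 CPM in ionocyte-like cells. Sema3c read 82.1 ± 3.09 and 27.3 ± 2.61 CPM. Epha5, an Eph receptor, read 110.2 ± 19.3 CPM in intercalated duct-like against 10.3 ± 1.74 CPM in granular duct-like cells. Of the list without the members, 12 of 33 genes tested were higher and 11 lower in ionocyte-like cells, and 16 of 35 were higher and 8 lower in intercalated duct-like cells. Over all genes tested, 23% were higher and 22.2% lower in ionocyte-like cells, and 22.7% and 23.4% in intercalated duct-like cells.

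The comparison of irradiated with untreated epithelium asks whether these levels differed at 90 days. The rule for the members names irradiated as well as untreated cells, in each of which basal were set against luminal cells. Irradiated against untreated cells is another contrast, but irradiated levels may have taken part in the choice, and the adjusted p-values below carry that limit. In granular duct-like cells Slit2 fell. It read 80.7, 84.5 and 68.1 CPM in irradiated mice (77.8 ± 8.58, n = 3) against 117, 138.5 and 138.1 CPM in untreated mice, with no overlap. The log2 fold change was −0.79 ± 0.11 (edgeR adjusted p = 1.9e-04). The share of cells with a UMI was 80.1% against 78.8% as measured, and 31.8% against 46.2% after thinning to 5000 UMIs.

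The granular duct-like cells of the libraries lay mostly in different clusters, 7 and 9 in the untreated and 0, 11 and 9 in the irradiated epithelium. The largest irradiated cluster (848 cells) was led by Reg3g and Lgals3. Cluster 9 held cells of both, and there Slit2 read 114, 136 and 139.9 CPM in untreated against 101, 74.8 and 44.5 CPM in irradiated mice, from 182 and 98 cells, of which 6, 51 and 41 in irradiated mice 1, 2 and 3. In those cells too the groups did not overlap. Clusters 0 and 11 had 6 and 5 of the 8 granular and 4 and 3 of the 7 striated markers raised.

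Sema4c also fell in granular duct-like cells. It read 0.742, 0.874 and 0.985 CPM against 4.06, 3.90 and 4.37 CPM, from 26 and 47 counts, with no overlap. The log2 fold change was −2.24 ± 0.30 (edgeR adjusted p = 1.5e-04). Of 1127 irradiated cells 2.04% held a UMI against 6.79% of 633, and 0.360% against 1.31% after thinning. Plxna4 read 21.2, 19.7 and 22.9 CPM against 19.5, 19.5 and 28.2 CPM and did not pass (−0.11 ± 0.16, 0.64). Of 3 members tested 2 were called, where 38.4% of 9823 genes were (19.1% higher, 19.3% lower). With cells limited to at least 1000 genes and at most 10% mitochondrial counts, Sema4c had too few counts to be tested and Slit2 kept its difference (−0.84, 5.6e-04).

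In ionocyte-like cells the direction of Sema4c was the opposite. It read 13.5, 22.0 and 19.2 CPM in irradiated mice (18.2 ± 4.35, n = 3) against 5.56, 5.62 and 11.9 CPM, with no overlap, and rose by 1.46 ± 0.29 on the log2 scale (edgeR adjusted p = 0.0018). Under the stricter limits on cells the difference was 1.34, with an adjusted p of 0.053. The share of cells with a UMI was 24.9% against 7.69%, and 7.92% against 3.59% after thinning.

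Slit2 fell in ionocyte-like cells, with 4.81, 8.66 and 5.91 CPM against 13.7, 18.4 and 11.3 CPM, without overlap (−0.92 ± 0.27, edgeR adjusted p = 0.022). That call was lost without untreated mouse 2 (adjusted p = 0.12) and without irradiated mouse 3 (0.075), and DESeq2 gave 0.054. Under the stricter limits on cells the difference was larger (−1.96, 0.0035). Plxna4 read 182, 211 and 200.2 CPM against 193, 111 and 208 CPM and did not pass (0.27 ± 0.17, 0.26). Of 3 members tested 2 were called, where 26.1% of 8954 genes were (15.4% higher, 10.7% lower). Nearly all untreated ionocyte-like cells lay in cluster 5 (531 of 533) and nearly all irradiated ones in cluster 4 (627 of 635).

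Cell quality and markers moved with irradiation in these classes. The median share of mitochondrial counts was 10.3% in untreated and 3.99% in irradiated granular duct-like cells, and 12.1% and 6.02% in ionocyte-like cells. The neural or Schwann list summed to 10.3 to 14.8 CPM in untreated and 28.1 to 33.7 CPM in irradiated ionocyte-like cells, with Cdh19, Prph and S100b at 0 in both. The fibroblast list of 7 genes summed to 39.3 to 93.6 and to 220.3 to 508 CPM, with Col1a1, Lum and Dpt at 0 in both. In granular duct-like cells the neural or Schwann list summed to 17.3 to 19.5 and to 18.4 to 25.4 CPM. The endothelial list stayed at or below 12.5 CPM. The part of these values in the differences was not tested.

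**Figure D4:**
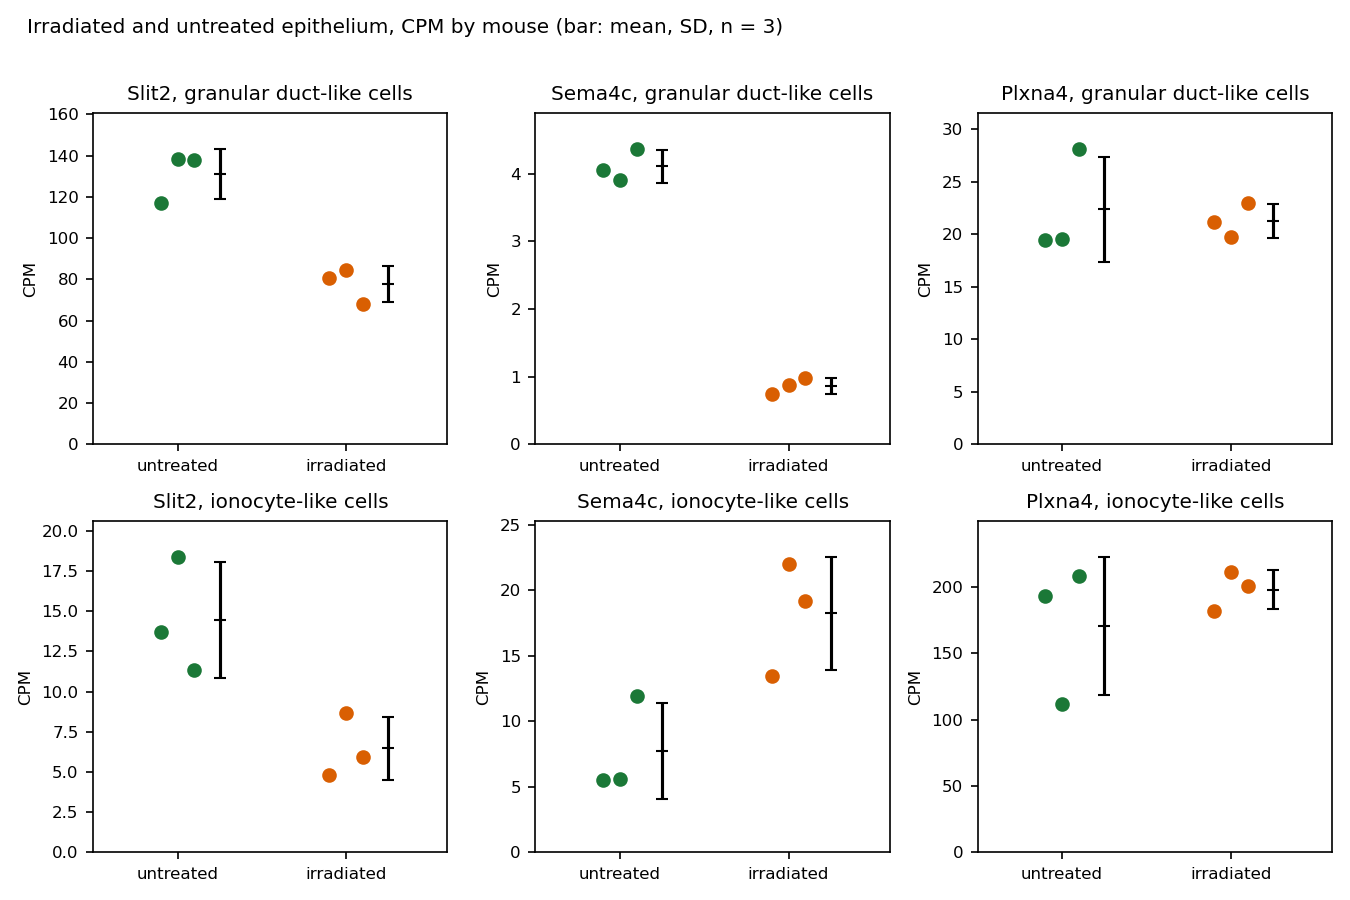
CPM of Slit2, Sema4c and Plxna4 in each untreated and irradiated mouse (points, with mean and SD, n = 3), in granular duct-like cells (top) and ionocyte-like cells (bottom). Slit2 is lower in irradiated mice in both classes without overlap, Sema4c is lower in granular duct-like and higher in ionocyte-like cells, and Plxna4 overlaps between the groups.

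Whether the effect differed by class was tested with an interaction term and the mouse as a block. The irradiation effect on Sema4c was 3.67 ± 0.43 higher on the log2 scale in ionocyte-like than in granular duct-like cells (edgeR adjusted p = 1.1e-05). For Slit2 (−0.17 ± 0.24, 0.76) and Plxna4 (0.39 ± 0.19, 0.20) the interaction did not pass, although for Slit2 it reached −1.13 (0.064) under the stricter limits on cells. Of 3 members tested 1 was called, where 11.6% of 10474 genes were (5.49% higher, 6.09% lower).

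Plxnb2, a plexin that can serve as receptor of Sema4c, fell in granular duct-like cells from 52.1 ± 5.34 to 28.2 ± 0.599 CPM (−0.92 ± 0.12, edgeR adjusted p = 1.3e-04). In ionocyte-like cells it read 67.2 ± 1.61 and 54.3 ± 1.92 CPM and did not pass (0.11). Its interaction was 0.65 (0.0086). Sdc4, a syndecan to which pleiotrophin can bind, rose in both classes, from 339 ± 18.3 to 582 ± 69.9 CPM in granular duct-like cells (0.75 ± 0.10, 1.3e-04) and from 907 ± 119 to 1611 ± 22.3 CPM in ionocyte-like cells (0.87 ± 0.08, 4.1e-06). Srgap1 rose in granular duct-like cells (0.66, 0.025). Efnb2 fell there (−0.85, 0.0039), and Epha2 rose in ionocyte-like cells (1.31, 0.0010). Of the list without the members, 6 of 32 genes tested rose and 8 fell in granular duct-like cells, and 5 of 26 rose and 1 fell in ionocyte-like cells. Over all genes tested, 19.1% rose and 19.3% fell in granular duct-like cells, and 15.4% and 10.7% in ionocyte-like cells.

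Over the whole epithelium, Ptn fell and Plxna4 rose. Ptn read 22.3, 5.65 and 3.83 CPM in irradiated against 31.0, 30.6 and 44.9 CPM in untreated mice (log2 −2.26 ± 0.52, edgeR adjusted p = 0.0084), with no overlap. Plxna4 read 58.5, 76.0 and 85.2 against 48.0, 27.7 and 39.7 CPM (0.61 ± 0.19, 0.031), also without overlap. The Plxna4 call was lost when mouse 2 or mouse 3 of either group was left out (adjusted p 0.069 to 0.096). Slit2, Sema4c and Robo1 did not pass, with differences of −0.06, 0.14 and −0.54, so 2 of 5 members tested were called, where 40.6% of 11963 genes were (20.7% higher, 19.8% lower). Robo2, Slit3 and Tenm2 had too few counts.

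The makeup of the libraries differed along with these values. Basal duct-like cells made up 2.57 ± 0.628% of untreated and 1.09 ± 0.597% of irradiated cells. Granular duct-like cells made up 29.6 ± 1.69% and 56.2 ± 5.17%, and intercalated duct-like cells 25.1 ± 4.64% and 5.21 ± 1.98%. Acinar-like cells made up 9.69 ± 1.47% and 0.238 ± 0.413%. Ionocyte-like cells made up 24.9 ± 3.77% and 28.1 ± 8.60%. A cluster left unnamed, with 8 of 9 ionocyte markers raised, made up 1.40 ± 0.361% and 7.32 ± 3.72%. It held 14 of the 1504 untreated and 472 of the 3420 irradiated Plxna4 counts. All these percentages are shares of kept cells, and cell loss differed by library. Of 8277 untreated barcodes 4093 passed the limits on genes and mitochondrial counts, and 1719 of those had no hashtag call. Of 3319 irradiated barcodes 2629 passed, and 294 of those had no call. The part of this loss in the shares was not tested. With basal duct-like cells left out, the Ptn difference was 0.88 with an adjusted p of 0.49. Of the 356 irradiated Ptn counts 117 lay in basal duct-like and 217 in intercalated duct-like cells, 153 of these in mouse 1. In a summed library, fewer cells of a type and less RNA per cell cannot be told apart, and the part of the makeup was tested for Ptn alone.

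The irradiated basal duct-like cells were too few for a test. Ptn read 312, 278 and 360 CPM in them, from 6, 78 and 33 counts in 2, 12 and 8 cells, against 2033, 1512 and 1790 CPM in untreated mice, from 335, 412 and 534 counts. The groups did not overlap. In irradiated mouse 3, however, 22 of the 33 counts lay in 1 cell, and 3 of 8 cells held a UMI. The makeup by cluster also differed. The Orm1-led cluster, low in Ptn in the sort, held 5 of the 22 irradiated and 4 of the 55 untreated cells. The Krt15-led cluster, high in Ptn, held 5 and 22. The part of this makeup in the Ptn difference was not tested. Robo2 read 0, 28.5 and 21.8 CPM against 78.9, 22.0 and 26.8 CPM, and for Robo2 the groups overlapped. Tenm2 had 4 irradiated and 8 untreated counts.

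Last, genes with the most similar pattern were sought by Pearson correlation of log2(CPM + 1) over 35 sums of a class in a mouse, which come from 14 combinations of class and library. The sums share libraries, mice and depth, so r describes and carries no p. Ptn was most like Krt15 (r = 0.956), Ackr4 (0.945) and Lgals7 (0.930). Robo2 was most like Cacna1g (0.961), Bcat1 (0.953) and Tenm2 itself (0.951), and Tenm2 most like Islr (0.982), Cacna1g (0.966) and Fam180a (0.963). Robo1 was most like Moxd1 (0.936), Vcan (0.930) and Camk1d (0.926). Of 10444 genes compared, another member was among the closest 3 only for Robo2.

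For the members outside the basal pattern the likeness was lower. Slit2 was most like Mpp6 (0.862), Esrrg (0.850) and Def6 (0.824). Plxna4 was most like Slc35b1 (0.873), Hexa (0.870) and Pfkfb3 (0.854). Sema4c was most like Chst15 (0.899), Arhgef40 (0.874) and Fkbp7 (0.860), and Slit3, from few counts, most like Ntf3 (0.922), Fat4 (0.912) and Mafa (0.910).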

How the data were processed

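The deposited values were raw UMI counts per gene and barcode, beside hashtag counts. Cell Ranger 6.1.2 and the mm10 build are named in the submitters' processing notes. Further upstream settings are not given in the sources used here. The basal sort held 5044 barcodes, the untreated library 8277 and the irradiated library 3319. Cells with at least 500 genes and at most 20% mitochondrial counts were kept (4418, 4093 and 2629).

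Mice were assigned from the hashtags with HTODemux (Seurat 5.3.0, quantile 0.99), which gave 3220, 2216 and 2153 single-mouse cells. Cells with 2 hashtags (231, 158 and 182) and those without a call (967, 1719 and 294) were left out, as were doublets found by Scrublet in scanpy 1.11.5 (116, 79 and 91). Clustering used 2000 variable genes without the members and the list, 30 principal components, 15 neighbours and Leiden resolution 1. A cluster was named from at least 3 raised markers of 1 list, and left unnamed where its cells were shallow for their library and none of those markers was among its 10 leading genes. Clusters named from the striated list were merged into the granular duct-like class, and the 85% limit for a mixed cluster was set, after the data were seen.

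Counts were summed per mouse and class, with at least 20 cells in each, and tested with edgeR 4.0.16 (R 4.3.3; TMM, filterByExpr, quasi-likelihood F test, two-sided, Benjamini-Hochberg over all genes tested, threshold 0.05). The scripts were tested on simulated data. Contrasts within a mouse had the mouse as a block. Across libraries the replicate numbers name different mice (r of deviations −0.48 to 0.06), while classes of 1 mouse deviated together (0.104 to 0.278). Intervals on ratios and shares are exact 95% intervals that cover counting error only, in Python 3.11.15 with scipy 1.17.1.

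The members and lists were chosen with earlier results of these data known. Named were the 8 members, the 2 genes of each of 12 role families with the highest mean CPM over 9 mice, the 3 genes most like each member among those of at least 10 CPM in some class, and the 5 motifs. Nrp1, Ptprz1 and Sdc1 lie outside that rule. Alternatives were DESeq2 1.42.0, no filter on low counts, each mouse left out, the block, hashtag calls by share, stricter cells (at least 1000 genes, at most 10% mitochondrial counts), the members kept in the clustering, and, chosen after seeing the data, total counts and sums without basal duct-like cells. Promoters were read from RefSeq GRCm38.p6. Other gene annotations were not used here.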

Additional observations from a re-analysis of the deposited data

Results flagged for a closer look

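Among the members and the named list genes, the effect of irradiation differed between ionocyte-like and granular duct-like cells in 6. This was by a test of the difference itself (edgeR interaction, adjusted p under 0.05, 3 mice in each group). Over all 10474 genes tested, 11.6% passed (5.49% higher, 6.09% lower). Of the 41 genes tested of the whole list, 6 were higher and 1 lower. Values are the effect in ionocyte-like minus that in granular duct-like cells on the log2 scale. Sema4c, the membrane semaphorin, had a difference of 3.67 (adjusted p = 1.1e-05), higher in 3 of 3 irradiated ionocyte-like sums and lower in 3 of 3 granular duct-like sums than every untreated one. Plxnb2, a plexin, had a difference of 0.65 (0.0086), with 28.2 against 52.1 CPM in granular duct-like and 54.3 against 67.2 CPM in ionocyte-like cells.

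Srgap2, a GTPase activator that binds Robo receptors, had a difference of 1.85 (0.020), with 0.764 against 2.00 CPM in granular duct-like and 19.0 against 15.6 CPM in ionocyte-like cells. Efnb2, a membrane ephrin, had a difference of 1.02 (0.0034), with 24.2 against 42.3 CPM and 38.8 against 38.4 CPM. Epha2, an Eph receptor, had a difference of 1.14 (0.019), with 16.6 against 13.8 CPM and 16.3 against 6.62 CPM. Rgmb, a ligand of neogenin and co-receptor of bone morphogenetic proteins, had a difference of −1.26 (0.015), with 25.02 against 9.90 CPM and 21.7 against 25.2 CPM. Different clusters hold these classes in the 2 libraries, and the cause of the differences was not tested.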

How the results depend on the processing

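Of 403 alternative values for single genes 366 stayed the same, and of 168 counts 144 stayed within 1.5 times. A value stayed the same if it kept its direction and its side of the threshold. In the sort against the untreated epithelium it had to keep its direction and move by no more than its SE times the square root of 3. Members of the myoepithelial contrast, described above without a test, were sorted here by the threshold. In 11 the sign turned. The whole-epithelium Ptn difference was 0.88 without basal duct-like cells. The other 10 are signs of differences that did not pass in either setting. In the whole epithelium Slit2 (−0.06) read 0.014 with hashtag calls by share, 0.26 with stricter cells, 0.28 on total counts and −0.16 to 0.028 without 1 mouse. Sema4c (0.14) read −0.091 by share and −0.067 to 0.30 without 1 mouse. Plxna4 in granular duct-like cells (−0.11) read −0.20 to 0.092 without 1 mouse. Sema4c in ionocyte-like against granular duct-like cells (0.27) read −0.11 to 0.45 without 1 mouse, and in intercalated against granular duct-like cells (−0.47) 0.22 on total counts. Members called in the irradiated whole epithelium (2) came to 1 without basal duct-like cells and with hashtag calls by share, which also gave 2799 genes in place of 4855 (Ptn adjusted p = 0.059). Leaving out a mouse gave 1 to 2 members and 3560 to 4692 genes. In granular duct-like cells the stricter cell filter tested Slit2 but not Sema4c and called 1 member, and leaving out a mouse gave 2 members and 2885 to 3730 genes. In ionocyte-like cells (2336 genes) 1471 genes were called by DESeq2, 1184 with stricter cells and 1552 to 2154 without 1 mouse, the lowest without irradiated mouse 2. There 1 member was called by DESeq2 or with stricter cells, 4 with no filter on low counts and 1 to 2 without 1 mouse. For the interaction (1213 genes) DESeq2 called 487 genes, stricter cells 642 and fits without 1 mouse 796 to 1096, the lowest without irradiated mouse 2. The Sema4c interaction ranged from 3.34 to 4.05. For ionocyte-like against granular duct-like cells (4303 genes) DESeq2 called 2302 and stricter cells 2099, and with no filter 4 members were called. For intercalated against granular duct-like cells (4360 genes) DESeq2 called 2340 and total counts 6671. Total counts also let Sema4c in ionocyte-like against granular duct-like cells pass (0.85, 0.029). The replicate number as a block pairs different mice across libraries. With that block 3949 genes and 2 members were called in the whole epithelium, 3720 and 2 in granular duct-like cells and 2183 and 2 in ionocyte-like cells. Without the mouse block 849 genes were called in the interaction and 5625 in the myoepithelial contrast. Not run were irradiated intercalated duct-like cells and endothelial-like against basal duct-like cells, and hashtag calls by share for the luminal classes, as a mouse held under 20 cells. Depth limits Slit3 in all luminal classes, Robo2 and Tenm2 outside basal cells, and Sema4c in granular duct-like cells. Each group is 3 mice of 1 library.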

Other observations

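A cluster of 148 cells, 114 irradiated, 30 untreated and 4 of the basal sort, had 8 of 9 ionocyte markers raised. It was left unnamed for its low depth (a median of 2380 UMIs) and leading genes. Its 114 irradiated cells held 472 of the 3420 Plxna4 counts of their library. Plxna4 read 871, 594 and 1018 CPM in the 3 irradiated mice, and Slit2 315, 87.7 and 177 CPM. In mice 1, 2 and 3, 2 cells held 27 of 105, 39 of 183 and 55 of 184 of these Plxna4 counts. In the untreated library a mixed cluster of 63 cells held 174 of 1504 Plxna4 counts and 212 of 1941 Slit2 counts.

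Irradiated intercalated duct-like cells, too few for a test, read 369.6, 43.2 and 21.5 CPM of Ptn from 153, 58 and 6 counts, against 1.40, 6.53 and 1.27 CPM in untreated mice. The counts of irradiated mouse 1 came from 10 of 24 cells and those of mouse 2 from 10 of 71 cells. Of the 356 Ptn counts of the irradiated library 217 lay in these cells. Mdk, which codes midkine, the other member of the pleiotrophin family, averaged 36.1 ± 26.6 CPM in them and 0 in the untreated class. The 2 sides lay in different clusters. Of the 109 irradiated cells 100 were in cluster 17, led by Cxcl2 and Osbpl3, which held all 217 counts. Of the 534 untreated cells 532 were in cluster 3, led by Esp4 and Slc13a2. Of the 7 intercalated markers 4 were raised in cluster 17 and 5 in cluster 3. The part of this makeup in the Ptn and Mdk values was not tested.

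Cycling cells of the basal sort read 1500.2, 1292 and 1343 CPM of Ptn, within the range of its basal duct-like cells. Robo4, the Robo receptor of vessels, averaged 196 ± 31.1 CPM in the endothelial-like cells of the sort and 0.103 CPM in basal duct-like cells. Slit1 had 0 counts in every class.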
